A study of Homo sapiens with 12 samples.

Results

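The genes described here are the EGR transcription factors EGR1, EGR2 and EGR3, their corepressors NAB1 and NAB2, the serum response factor SRF, and the early response gene IER2. All probe sets annotated to these 7 symbols were taken, which gave 11 of the 22215 probe sets tested and covered 6 of the 7, among 11963 genes measured. EGR1, NAB2 and SRF had 2 probe sets each, NAB1 had 3, and EGR3 and IER2 had 1 each. EGR2 was not analysed here.

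Expression was measured on 12 Affymetrix expression arrays in the K562 line, established human leukemia cells. All cells received Wnt3a protein at 100 ng/ml in medium without serum, and RNA was taken after 8 h, so no comparison measures the response to Wnt3a itself. Of the 4 groups of 3 arrays, the empty vector group was nucleofected with pEGFP-C2 and the overexpression group with pEGFP-CXXC5, both transiently. The scrambled shRNA and knockdown groups came from stable lentiviral infection, the latter with shRNA against CXXC5 in pLKO.1. The labels name 2 shRNA clones without saying which knockdown array carried which, and do not say whether replicates were separate cultures. The p-values therefore rest on a spread between samples that may be technical. The level of CXXC5 itself, a CXXC zinc finger protein that inhibits Wnt signalling through Dishevelled, was not analysed here, so it gave no check of the labels.

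Growth factors and other stimuli act through kinase cascades on ternary complex factors such as ELK1, which sit with SRF on promoter elements called CArG boxes. The genes so controlled are switched on within minutes, need no new protein, and include EGR1, EGR2, EGR3, IER2 and FOS. EGR proteins are zinc finger factors that bind GC-rich DNA. They switch on NAB2, whose protein binds EGR1, EGR2 and EGR3 and represses their activity, in part through the NuRD complex, which forms a negative feedback loop. NAB1 is a related corepressor that is usually described as more constantly expressed. EGR1 is also known for its part in the monocytic differentiation of myeloid cells.

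The promoters of 4 of the measured genes are shown because they differ in these elements. RefSeq (GRCh38.p14) held promoter entries for 6 of the 7 symbols. Each sequence is the 250 bases before the gene's start, 5′ to 3′ on the plus strand, with matches to the CArG box and to the EGR site in capitals. They lie at chr5:138465229-138465478 for EGR1, chr6:43171019-43171268 for the first of 2 SRF starts, chr12:57088864-57089113 for NAB2 and chr19:13150161-13150410 for IER2.
EGR1: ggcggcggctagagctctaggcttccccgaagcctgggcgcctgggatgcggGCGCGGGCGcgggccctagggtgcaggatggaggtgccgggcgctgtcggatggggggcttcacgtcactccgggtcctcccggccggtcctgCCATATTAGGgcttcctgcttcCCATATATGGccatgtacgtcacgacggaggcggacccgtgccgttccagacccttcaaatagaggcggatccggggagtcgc
SRF: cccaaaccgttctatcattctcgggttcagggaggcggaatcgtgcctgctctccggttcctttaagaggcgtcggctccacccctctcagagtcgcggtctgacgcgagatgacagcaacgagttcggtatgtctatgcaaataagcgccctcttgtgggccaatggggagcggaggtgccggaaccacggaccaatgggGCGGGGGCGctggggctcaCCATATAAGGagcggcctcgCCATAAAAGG
NAB2: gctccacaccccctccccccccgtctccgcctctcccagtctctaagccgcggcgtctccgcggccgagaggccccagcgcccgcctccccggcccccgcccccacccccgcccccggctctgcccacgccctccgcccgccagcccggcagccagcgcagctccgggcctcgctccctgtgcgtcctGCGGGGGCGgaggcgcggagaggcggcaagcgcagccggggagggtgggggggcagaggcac
IER2: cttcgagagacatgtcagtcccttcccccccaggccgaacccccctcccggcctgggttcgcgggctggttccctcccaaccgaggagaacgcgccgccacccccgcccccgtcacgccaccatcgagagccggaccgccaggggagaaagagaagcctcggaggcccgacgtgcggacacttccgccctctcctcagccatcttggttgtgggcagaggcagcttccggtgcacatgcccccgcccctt

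The EGR1 window held 2 CArG boxes, at -105 to -96 and at -83 to -74 counted from the start. It held 1 EGR site, spelled GCGNGGGCG, at -198 to -190. The SRF window also held 2 CArG boxes, at -30 to -21 and -10 to -1, with 1 EGR site at -49 to -41. The NAB2 window held no CArG box and had 1 EGR site at -62 to -54. IER2 had neither motif in this window, and had 3 GC boxes, spelled GGGCGG. The windows of the first and second NAB1 starts held no CArG box and held 2 and 3 EGR sites. Of these sites 2 are the same bases, since the starts lie 188 bases apart. The windows of the third NAB1 start and the second SRF start held no CArG box, EGR site or GC box. On both strands, a CArG box was present in 1.16% of the 35114 promoter windows of this length, an EGR site in 8.41% and a GC box in 42.6%. The EGR sites of SRF, NAB2 and NAB1 each overlap a GC box, and that of EGR1 does not. The cyclic AMP element TGACGTCA, present in 1.65% of windows, was in none of these. A match is a description of the sequence, and binding was not measured.

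**Figure D1:**
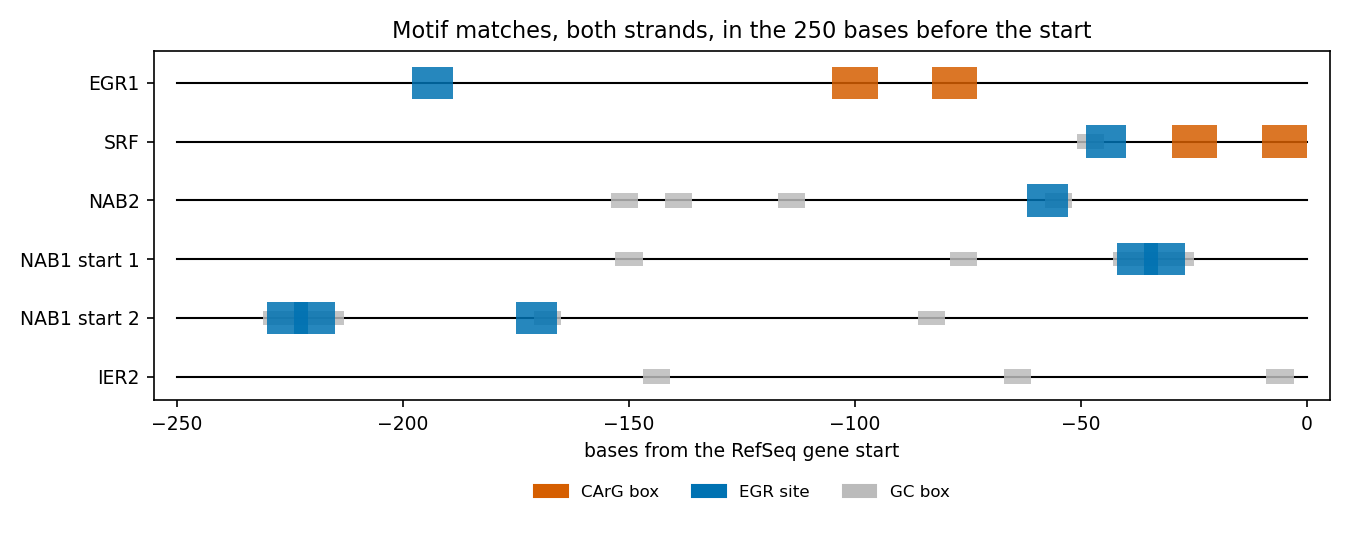
Positions of motif matches on both strands in the 250 bases before the start of each gene, in bases from the start; orange marks CArG boxes, blue EGR sites and grey GC boxes. CArG boxes lie before EGR1 and the first SRF start. EGR sites lie before these, NAB2 and the NAB1 starts shown, and IER2 has GC boxes only.

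Values below are log2 expression, in which a difference of 1 is a doubling, and a change was called where limma's Benjamini-Hochberg adjusted p over all 22215 probe sets was under 0.05. Scrambled shRNA replicate 3 stood apart in RNA or labelling quality, with a difference between the 3′ and 5′ GAPDH control probe sets of 0.87, against 0.227 to 0.335 on the other 11 arrays. All 7 calls in the knockdown comparison were also made without it. Of 11 K562 markers, 8 were measured, at the 66th to the 99.1st percentile of mean level, and log2 of their summed level was 14.29 to 14.33 on the empty vector arrays, 14.45 to 14.47 on the overexpression arrays, 14.76 to 14.80 on those with scrambled shRNA and at most 14.43 on those with knockdown. Of 12 markers of other cell types, 11 were measured, with a median percentile of 40.3 and a range of 21.3 to 94.4, and their summed level was 12.50 to 12.59, 12.64 to 12.67, 12.56 to 12.68 and 12.46 to 12.48 in the same order. CD3D, a T cell receptor component at the 92.9th percentile, was the only marker of this list called with overexpression or knockdown. It changed by 0.38 with overexpression (adjusted p = 0.04) and by -0.35 with knockdown (adjusted p = 0.0328). CD3E, of the same receptor, stood at the 43.3rd percentile and was called in neither (0.08 and -0.29, adjusted p = 0.827 and 0.183). These sums moved with the groups, and their part in the results below was not tested. Single K562 markers went both ways, by each gene's brightest probe set. With overexpression 2 rose and 1 fell, where 5.25% of all genes were called. With knockdown 1 rose and 3 fell, where 11.8% were called. Between the controls 5 were higher with scrambled shRNA, where 15.1% of all genes were, and 2 were lower. Lower RNA per cell and fewer expressing cells cannot be told apart in bulk samples.

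EGR1, an activator of growth and differentiation genes, was higher with CXXC5 overexpression and lower with knockdown, each against its own control. Its brighter probe set (201694_s_at) read 10.44, 10.31 and 10.34 on the empty vector arrays and 11.56, 11.34 and 11.42 on the overexpression arrays. It read 11.83, 11.91 and 11.82 with scrambled shRNA and 10.54, 10.57 and 10.51 with knockdown. None of the 4 groups overlapped: scrambled shRNA was highest, overexpression next, then knockdown, and empty vector lowest. EGR1 rose by 1.08 with overexpression (SE 0.0692, 2.11-fold, adjusted p = 5.79e-06) and fell by 1.31 with knockdown (SE 0.0692, 2.48-fold, adjusted p = 4.49e-07).

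The dimmer EGR1 probe set (201693_s_at) gave the same order. It read 8.14, 7.98 and 8.04 with empty vector and 9.32, 8.96 and 9.09 with overexpression. With scrambled shRNA it read 9.89, 9.90 and 9.50, replicate 3 being the lowest, and with knockdown 8.36, 8.29 and 8.21. It rose by 1.07 with overexpression (SE 0.116, adjusted p = 0.000312) and fell by 1.48 with knockdown (SE 0.116, 2.78-fold, adjusted p = 2e-05), and no groups overlapped. Both EGR1 probe sets can match several transcripts. They share 1 mRNA source on each array and are not separate replicates.

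EGR3, a close relative of EGR1 that binds the same DNA sequence, showed the widest range of the members. It read 6.17, 6.12 and 6.00 with empty vector, and 7.49, 7.05 and 7.30 with overexpression. It read 8.17, 8.31 and 8.02 with scrambled shRNA, and 6.13, 6.06 and 6.18 with knockdown. The empty vector and knockdown arrays overlapped, and both lay below all overexpression arrays, which lay below all scrambled shRNA arrays. EGR3 rose by 1.18 with overexpression (SE 0.108, 2.27-fold, adjusted p = 9.23e-05) and fell by 2.04 with knockdown (SE 0.108, 4.11-fold, adjusted p = 4.49e-07). In size of change, 29 of all probe sets moved more than EGR3 with overexpression and 7 with knockdown.

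IER2, a nuclear protein encoded by an early response gene, moved in the same directions by less. It read 11.44, 11.43 and 11.47 with empty vector, and 11.79, 11.75 and 11.74 with overexpression. It read 12.03, 11.99 and 11.95 with scrambled shRNA, and 11.43, 11.41 and 11.37 with knockdown. No groups overlapped, though empty vector and knockdown nearly met. IER2 rose by 0.31 with overexpression (SE 0.0543, 1.24-fold, adjusted p = 0.00751) and fell by 0.59 with knockdown (SE 0.0543, 1.503-fold, adjusted p = 5.98e-05).

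**Figure D2:**
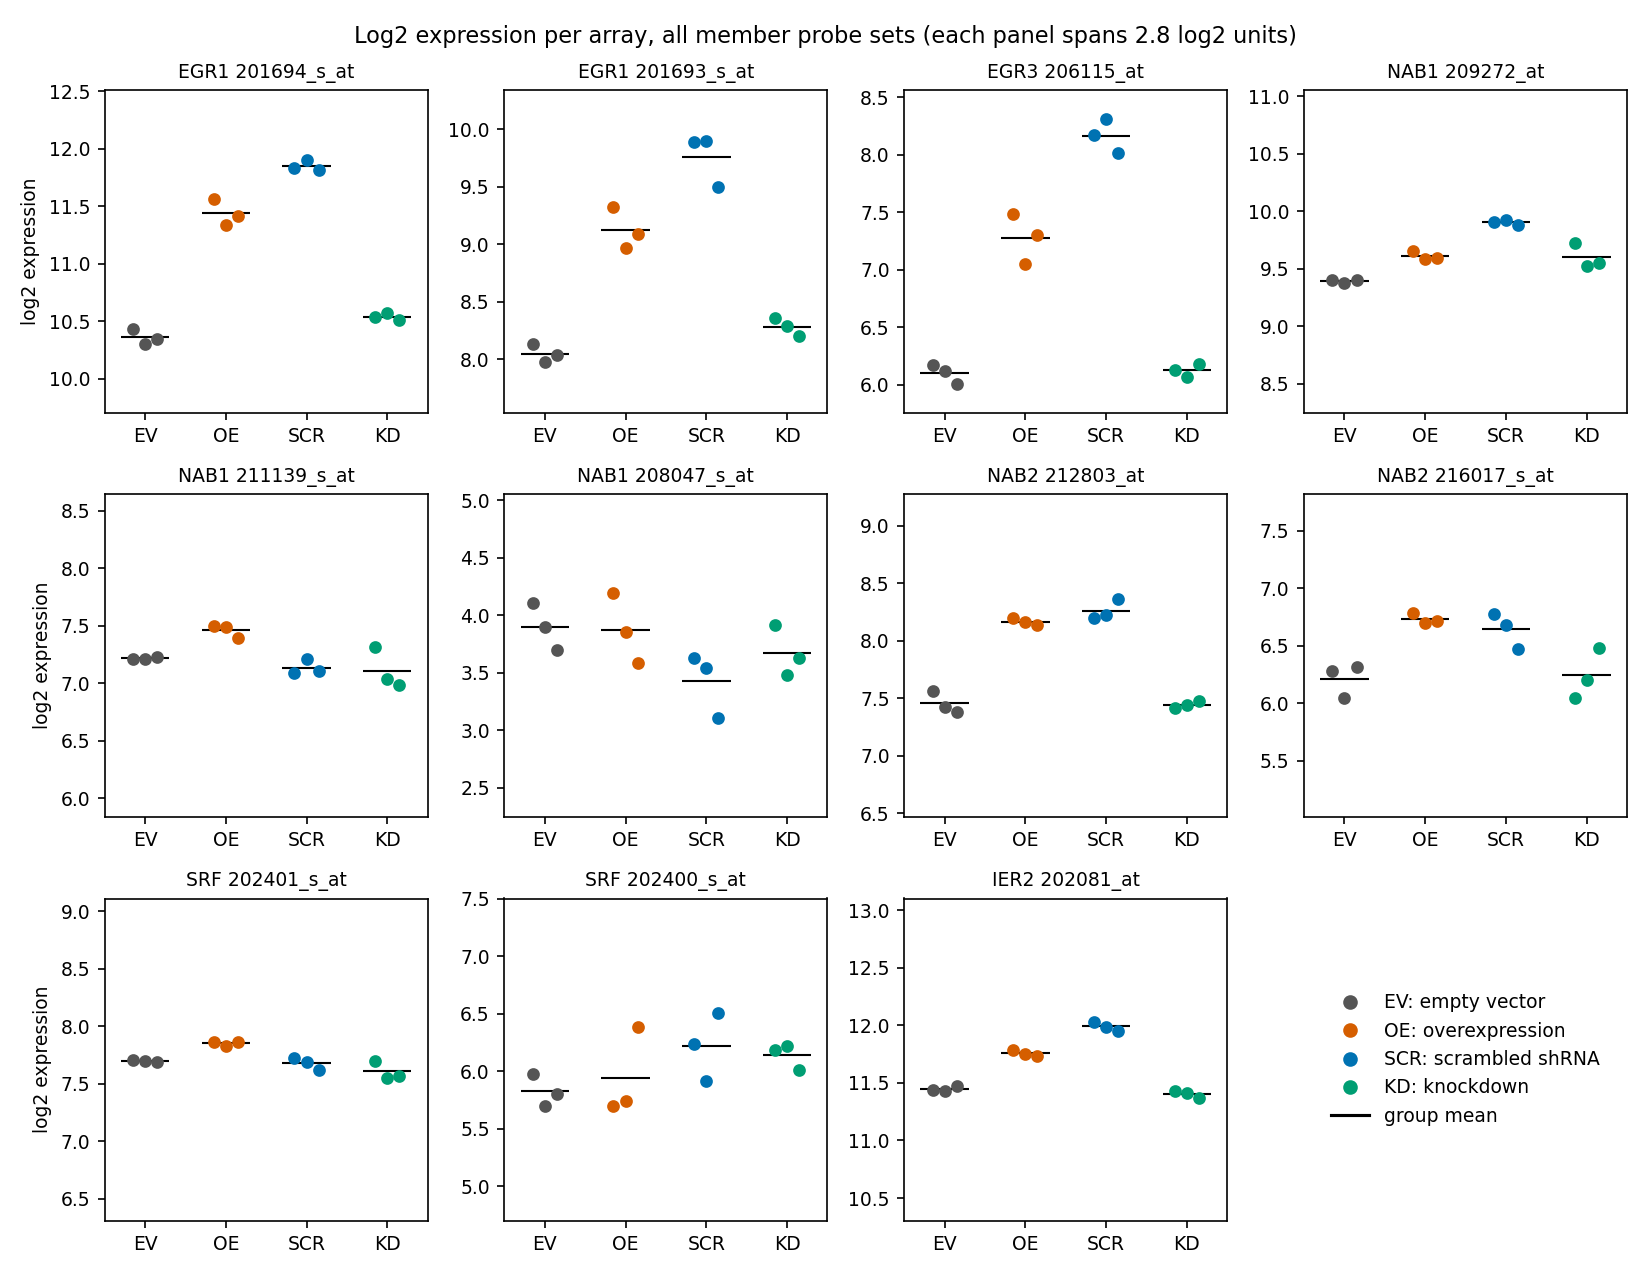
Log2 expression on each of the 12 arrays for all 11 probe sets, with 3 points per group and a line at the group mean; every panel spans the same number of log2 units. For EGR1, EGR3 and IER2, scrambled shRNA is highest and overexpression second; for the brighter NAB2 probe set these groups lie together above the others.

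NAB2, the inducible corepressor of the EGR factors, rose with overexpression and fell with knockdown. Its brighter probe set (212803_at) read 7.56, 7.42 and 7.38 with empty vector, and 8.20, 8.16 and 8.13 with overexpression. It read 8.20, 8.22 and 8.36 with scrambled shRNA, and 7.41, 7.44 and 7.48 with knockdown. The arrays formed a high pair of groups, overexpression and scrambled shRNA, and a low pair, empty vector and knockdown, with no overlap between the pairs. NAB2 rose by 0.71 with overexpression (SE 0.068, 1.63-fold, adjusted p = 0.000127) and fell by 0.81 with knockdown (SE 0.068, 1.76-fold, adjusted p = 3.05e-05).

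The dimmer NAB2 probe set (216017_s_at) read 6.28, 6.05 and 6.32 with empty vector, and 6.78, 6.70 and 6.72 with overexpression. It read 6.78, 6.68 and 6.47 with scrambled shRNA, and 6.05, 6.20 and 6.48 with knockdown. The last 2 groups overlapped, since the highest knockdown array lay just above the lowest scrambled shRNA array. It rose by 0.52 with overexpression (SE 0.115, adjusted p = 0.0262), and the call was lost without empty vector replicate 1 or 2 or without any 1 of the overexpression arrays (highest adjusted p = 0.122). It fell by 0.40 with knockdown (SE 0.115, adjusted p = 0.0466), and this call was made under 7 of 19 alternatives. Of the arrays left out singly, it was kept without empty vector replicate 2, scrambled shRNA replicate 3 or knockdown replicate 3.

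NAB1 gave no common direction over its 3 probe sets. The brightest (209272_at) read 9.41, 9.38 and 9.40 with empty vector, and 9.66, 9.59 and 9.59 with overexpression. It read 9.91, 9.93 and 9.88 with scrambled shRNA, and 9.73, 9.52 and 9.55 with knockdown. Scrambled shRNA lay above and empty vector below all other arrays, and overexpression and knockdown overlapped. It fell by 0.30 with knockdown (SE 0.0645, adjusted p = 0.0119). This call was lost without knockdown replicate 3, in a fit on the 6 arrays compared, and in the mean of the 3 probe sets. In that mean the change was -0.03 (adjusted p = 0.882). With overexpression the brightest probe set stood 0.22 higher without passing the test (95% interval 0.076 to 0.358, adjusted p = 0.0891), although the groups did not overlap.

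The second NAB1 probe set (211139_s_at) read 7.21, 7.21 and 7.23 with empty vector, and 7.50, 7.49 and 7.39 with overexpression. It read 7.09, 7.21 and 7.11 with scrambled shRNA, and 7.31, 7.03 and 6.98 with knockdown. Overexpression was the highest group, with a difference from empty vector of 0.24 (adjusted p = 0.145), and knockdown overlapped scrambled shRNA at -0.03 (adjusted p = 0.884). The other (208047_s_at) was dim, at the 10.8th percentile of mean level, with values from 3.11 to 4.19, and its differences were -0.02 and 0.25 (adjusted p = 0.969 and 0.43).

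SRF, the factor that binds CArG boxes, passed the test in neither comparison with its own control. Its brighter probe set (202401_s_at) read 7.70, 7.70 and 7.69 with empty vector, and 7.86, 7.83 and 7.87 with overexpression. It read 7.72, 7.69 and 7.62 with scrambled shRNA, and 7.70, 7.55 and 7.57 with knockdown. The overexpression arrays were the highest of all 12 and stood apart from empty vector by 0.16 (95% interval 0.024 to 0.286, adjusted p = 0.2). Knockdown and scrambled shRNA overlapped, with a difference of -0.07 (95% interval -0.202 to 0.060, adjusted p = 0.518). The dimmer probe set (202400_s_at) had its lowest value, 5.70, in the empty vector and overexpression groups and its highest in scrambled shRNA, and overexpression replicate 3 read 6.39 against 5.70 and 5.75 in the other two; its differences were 0.12 and -0.08 (adjusted p = 0.814 and 0.84).

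**Figure D3:**
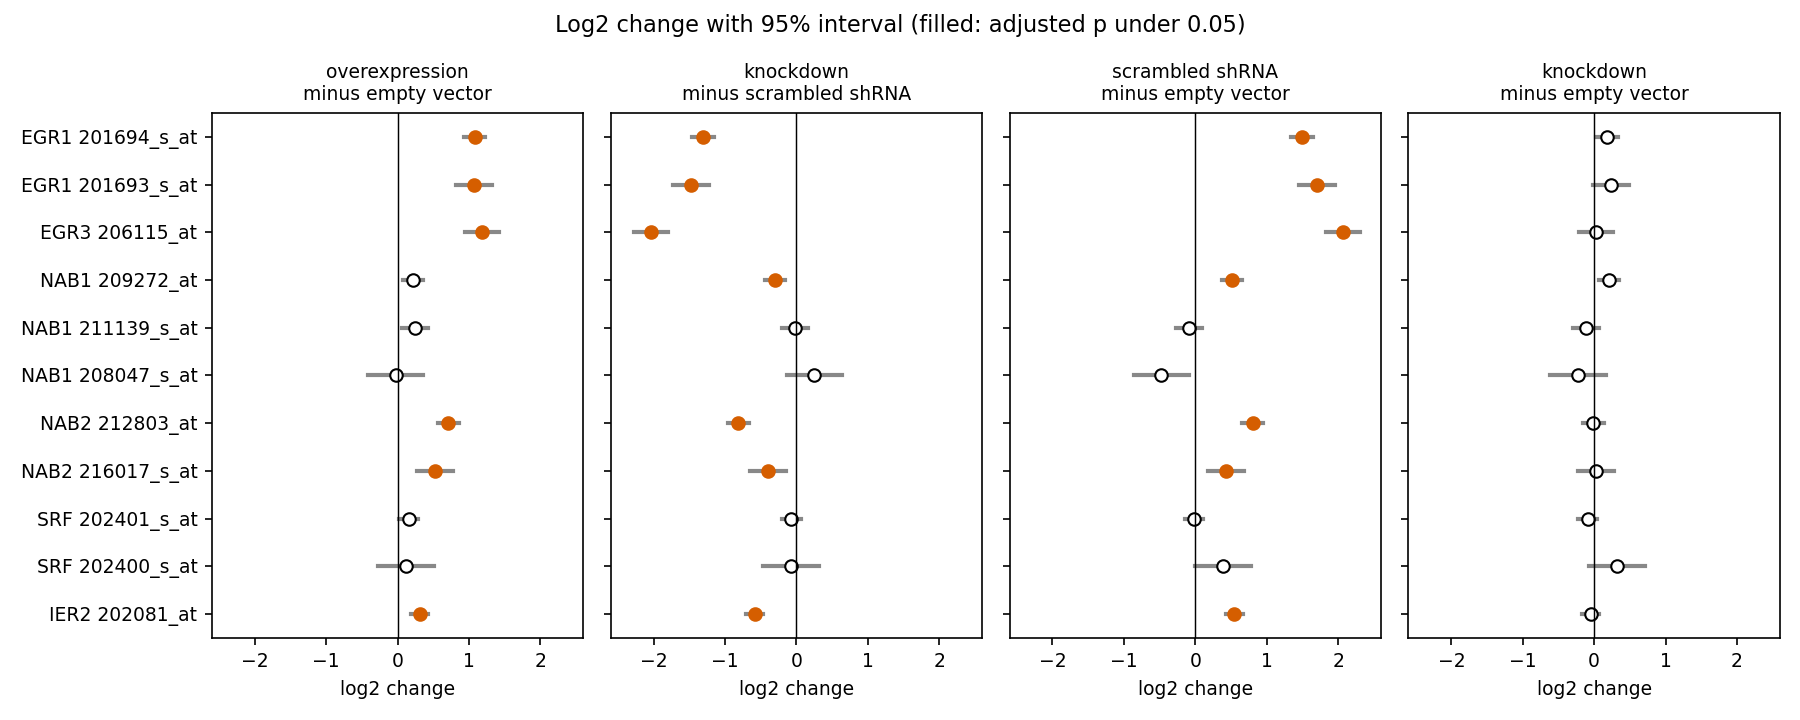
Log2 change with its 95% interval for each probe set in 4 comparisons; filled points have an adjusted p under 0.05. Calls are all above 0 for overexpression, all below 0 for knockdown, all above 0 between the controls, and absent between knockdown and empty vector.

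Over all 11 probe sets, 6 were called higher with overexpression and 0 lower, where 4.19% of all 22215 probe sets were called, 2.27% of them upwards. The median change was 0.31, against -0.00096 over all probe sets. In 9 the overexpression arrays lay wholly above the empty vector arrays, where 11% of all probe sets did so. With knockdown, 7 were called lower and 0 higher, where 9.83% of all were called, 3.7% downwards. The median change was -0.40, against -0.00696 over all. In 6 the knockdown arrays lay wholly below the scrambled shRNA arrays, where 12.9% of all probe sets did so.

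These comparisons share no arrays, but the fit took each probe set's spread from all 12 arrays, so their p-values are not independent. Both EGR1, the EGR3, both NAB2 and the IER2 probe sets, 6 of 11, rose with overexpression and fell with knockdown, where 265 of all probe sets, 1.19%, did so. The difference between the effects was called for 7 of the 11, all with the overexpression effect the higher. Of all probe sets 14.9% were called, 5.82% in that direction. For the 6 it adds called changes of opposite sign, so its call there followed from them and is no separate evidence. The brightest NAB1 probe set was the seventh. SRF passed neither this test nor either single comparison.

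**Figure D4:**
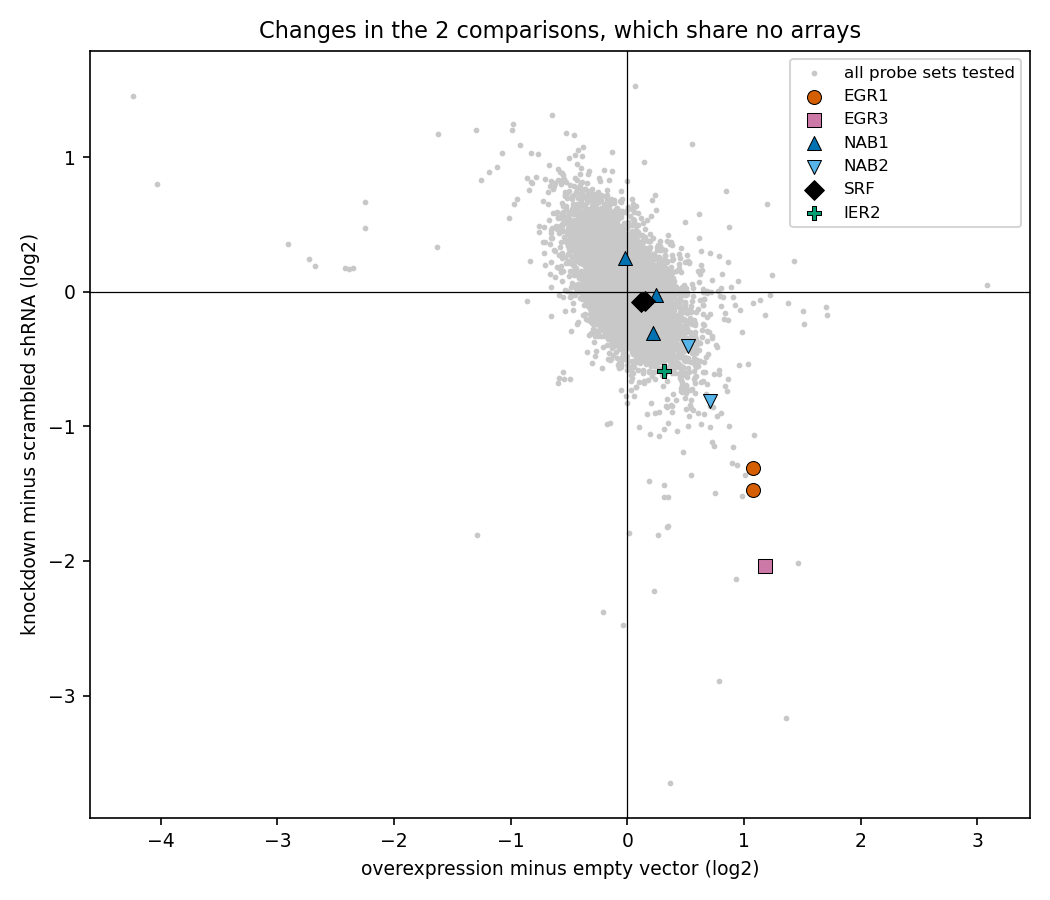
Log2 change with knockdown against log2 change with overexpression, each against its own control, with all probe sets tested in grey and the 11 described here in colour. EGR3, EGR1, NAB2 and IER2 lie at the lower right; SRF lies near 0 on both axes.

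The 2 controls differed from each other by more than the overexpression effect for EGR1, EGR3 and IER2. The same held for the brightest NAB1 probe set. At the brighter NAB2 probe set overexpression stood -0.09 from scrambled shRNA, which did not pass the limma test (adjusted p = 0.37). Scrambled shRNA stood above empty vector by 1.49 and 1.71 for the EGR1 probe sets (adjusted p = 1.76e-07 and 2.47e-06), and by 2.07 for EGR3 (SE 0.108, 4.19-fold, adjusted p = 3.06e-07). The difference was 0.54 for IER2, 0.80 and 0.43 for NAB2, and 0.51 for the brightest NAB1 probe set (adjusted p at most 0.0163). The other NAB1 probe sets went the opposite way, at -0.08 and -0.47 (adjusted p = 0.495 and 0.0653). The mean of the 3 NAB1 probe sets stood at -0.015 (adjusted p = 0.915). The call for the dimmer NAB2 probe set was lost without empty vector replicate 2 or scrambled shRNA replicate 1. In all, 7 of 11 were called, all upwards, where 27.7% of all probe sets were called and 13.4% upwards. SRF differed by -0.02 and 0.39 (adjusted p = 0.84 and 0.125). Vector, delivery by nucleofection or lentivirus, and transient or stable presence all differ between these controls and cannot be told apart.

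Between knockdown and empty vector, 0 of 11 probe sets were called in the limma test, a share near the 3.24% of all probe sets. At an unadjusted p under 0.05, 2 of the 11 passed, where 20.9% of all did. EGR3 differed by 0.03 (95% interval -0.207 to 0.262), NAB2 by -0.01 (95% interval -0.160 to 0.137) and IER2 by -0.04 (95% interval -0.163 to 0.074). In 4 of the 11 the knockdown arrays lay wholly above the empty vector arrays, where 15.5% of all probe sets did, and in 1, that of IER2, wholly below, where 12.9% of all did. The 4 were the brighter EGR1 probe set at 0.18 (95% interval 0.029 to 0.331, adjusted p = 0.168), the dimmer one at 0.23 (95% interval -0.019 to 0.488, adjusted p = 0.273), the brightest NAB1 probe set at 0.21 (95% interval 0.066 to 0.347, adjusted p = 0.099) and the dimmer SRF probe set at 0.31 (95% interval -0.078 to 0.706, adjusted p = 0.343). This comparison, that between the controls and the 2 matched comparisons share arrays, so their values are not independent of each other.

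The levels of EGR1, EGR3 and IER2 had the same leading order, scrambled shRNA above overexpression above the other groups. From scrambled shRNA to overexpression, the brighter EGR1 probe set stepped down by 0.412, EGR3 by 0.887 and IER2 by 0.232 (adjusted p = 0.00347, 0.000544 and 0.0163). The IER2 step was lost without overexpression replicate 2 and in a fit on the 6 arrays compared. Overexpression stood above knockdown by 0.90 for EGR1, 1.15 for EGR3 and 0.36 for IER2 (adjusted p = 3.02e-05, 0.000104 and 0.00218). The last step, between knockdown and empty vector, passed for none of them.

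For NAB2 the step from scrambled shRNA to overexpression did not pass. Its overexpression arrays stood -0.09 from scrambled shRNA (95% interval -0.242 to 0.054, adjusted p = 0.37) at the brighter probe set and 0.09 (95% interval -0.161 to 0.340, adjusted p = 0.636) at the dimmer. For the brightest NAB1 probe set, the step from scrambled shRNA to overexpression passed (-0.29, adjusted p = 0.0127) and the lower steps did not. That from overexpression to scrambled shRNA at the second NAB1 probe set was 0.32 in the opposite direction (adjusted p = 0.0244), lost without scrambled shRNA replicate 1 or 3 or overexpression replicate 1 or 2. In all, 6 of 11 were called between overexpression and scrambled shRNA, 5 of them lower, where 15.3% of all probe sets were called and 7.8% lower.

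Between overexpression and knockdown, 8 of 11 were called, all higher with overexpression, where 11.9% of all were called and 5.33% in that direction. They included the brighter SRF probe set, at 0.24 (95% interval 0.114 to 0.376, adjusted p = 0.0228), called under 14 of 21 alternatives. The dimmer SRF probe set stood at -0.20 (adjusted p = 0.524), and the mean of both at 0.02 (adjusted p = 0.901). The call of the brighter one was lost without any 1 of the overexpression arrays and without knockdown replicate 2 or 3. The number called was 5 without overexpression replicate 1 and 5 without knockdown replicate 2. This comparison crosses the methods of delivery.

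Of 7 listed SRF cofactors, among them ELK1 and MRTFA, 6 were measured, and 0 were called, with changes between -0.25 and 0.10 with overexpression and between -0.27 and 0.24 with knockdown. In the limma test at an unadjusted p under 0.05, 1 passed with overexpression and 2 with knockdown, where 19.5% and 26.9% of all genes did. This list and those below use the brightest probe set of each gene, and over all 11963 genes 5.25% were called with overexpression and 11.8% with knockdown, with medians of 0.0013 and -0.0091, so 0 of 6 is near the share of all genes.

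Actin-type SRF targets, which respond to SRF through the MRTF cofactors and the state of actin, showed no common direction. Of 16 listed, 13 were measured. With overexpression 0 were called, while 7 passed at an unadjusted p under 0.05, where 19.5% of all genes did, and changes ran from -0.35 to 0.46. With knockdown 2 rose and 2 fell. Those that rose were CNN1, a smooth muscle calponin, by 0.60 (adjusted p = 0.00443), and TPM1, a tropomyosin, by 0.31 (adjusted p = 0.0113), with 2 of its 4 probe sets called. Those that fell were ZYX, the focal adhesion protein zyxin, by 0.56 (adjusted p = 0.0105), and CNN2, a further calponin, by 0.37 (adjusted p = 0.00369).

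Other immediate early genes, which like EGR1 need no new protein for their induction, were called in both comparisons. All 19 listed were measured. With overexpression 3 rose and 1 fell, with a median of 0.08. IER3, a regulator of survival, rose by 1.47 (SE 0.0967, 2.77-fold, adjusted p = 6.33e-06), and ZFP36, which encodes the mRNA decay factor tristetraprolin, by 0.55 (SE 0.08, adjusted p = 0.00229). FOS, a subunit of the factor AP-1, was called at 0.52 (adjusted p = 0.045), and TRIB1, a pseudokinase, fell by 0.42 (adjusted p = 0.0292). The FOS call was lost without any 1 of the 9 empty vector, overexpression and knockdown arrays. The TRIB1 call was lost without empty vector replicate 1 or 2 or overexpression replicate 2 or 3.

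With knockdown, 11 of these 19 genes fell and 1 rose, with a median of -0.37. IER3 fell by 2.02 (SE 0.0967, 4.05-fold, adjusted p = 3.04e-07) and ZFP36 by 1.36 (SE 0.08, 2.57-fold, adjusted p = 1.22e-06). FOS fell by 0.99 and JUNB, its partner in AP-1, by 0.90 (adjusted p = 0.00072 and 4.24e-05). The gene that rose was ATF3, a stress-induced factor, by 0.40 (adjusted p = 0.0307); this call was lost without any of the scrambled shRNA arrays or without knockdown replicate 1 or 3. Between the controls, 13 of the 19 were called higher with scrambled shRNA and 0 lower, where 15.1% of all genes were higher.

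Published EGR targets, a list of genes described elsewhere as controlled by EGR factors, moved in both directions. Of 24 listed, 20 were measured. With overexpression 1 rose and 2 fell, with a median of 0.07. ICAM1, a cell adhesion receptor, rose by 0.34 (adjusted p = 0.0393), a call lost without empty vector replicate 2 or 3, scrambled shRNA replicate 1, or any 1 of the overexpression or knockdown arrays. ID3, a helix-loop-helix protein that keeps other factors off DNA, fell by 1.18 (SE 0.118, adjusted p = 0.000171), and FN1, fibronectin, by 0.49 (SE 0.0571, adjusted p = 0.000627).

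With knockdown, 6 of these 20 fell and 2 rose, with a median of -0.26. ICAM1 fell by 1.75 (SE 0.0827, 3.37-fold, adjusted p = 3.04e-07), and the cytokine TNF, dim at the 20.6th percentile, by 0.90 (SE 0.0797, adjusted p = 4.29e-05). Falls were also called for FN1 at -0.65, the platelet-derived growth factor genes PDGFB and PDGFA at -0.58 and -0.56, and GADD45A, a stress sensor, at -0.40. The PDGFB call was lost without scrambled shRNA replicate 3 or knockdown replicate 1 or 3. ID3 rose by 0.89 (SE 0.118, adjusted p = 0.000785). The brightest of 5 probe sets for THBS1, the matrix protein thrombospondin, rose by 1.53 (SE 0.193, adjusted p = 0.000574), while the others stood between -0.14 and 0.38 and were not called. Of the FN1 probe sets 4 of 6 were called in each comparison, and of the PDGFB probe sets 0 of 4 with overexpression and 1 of 4 with knockdown. Between the controls, 12 of the 20 genes were called higher with scrambled shRNA and 3 lower, where 15.1% of all genes were higher. The median difference of the list there was 0.40.

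Among EGR relatives and the NuRD partners of the NAB proteins, 15 of 16 genes were measured. With overexpression 1 rose and 0 fell, and with knockdown 1 rose and 1 fell. These counts are near the shares of all genes called, 5.25% and 11.8%. WT1, a zinc finger factor related to the EGR proteins, rose by 0.27 with overexpression (adjusted p = 0.0193). This call was lost without empty vector replicate 2 or any 1 of the overexpression arrays. With knockdown WT1 fell by 0.29 (adjusted p = 0.00741), and in each comparison 1 of its 2 probe sets was called. CHD4, the NuRD remodelling ATPase, rose by 0.29 with knockdown (adjusted p = 0.00936), with 2 of 3 probe sets called. EGR4, the remaining EGR gene, was -0.06 with overexpression and -0.02 with knockdown, with group means between 5.26 and 5.46.

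**Figure D5:**
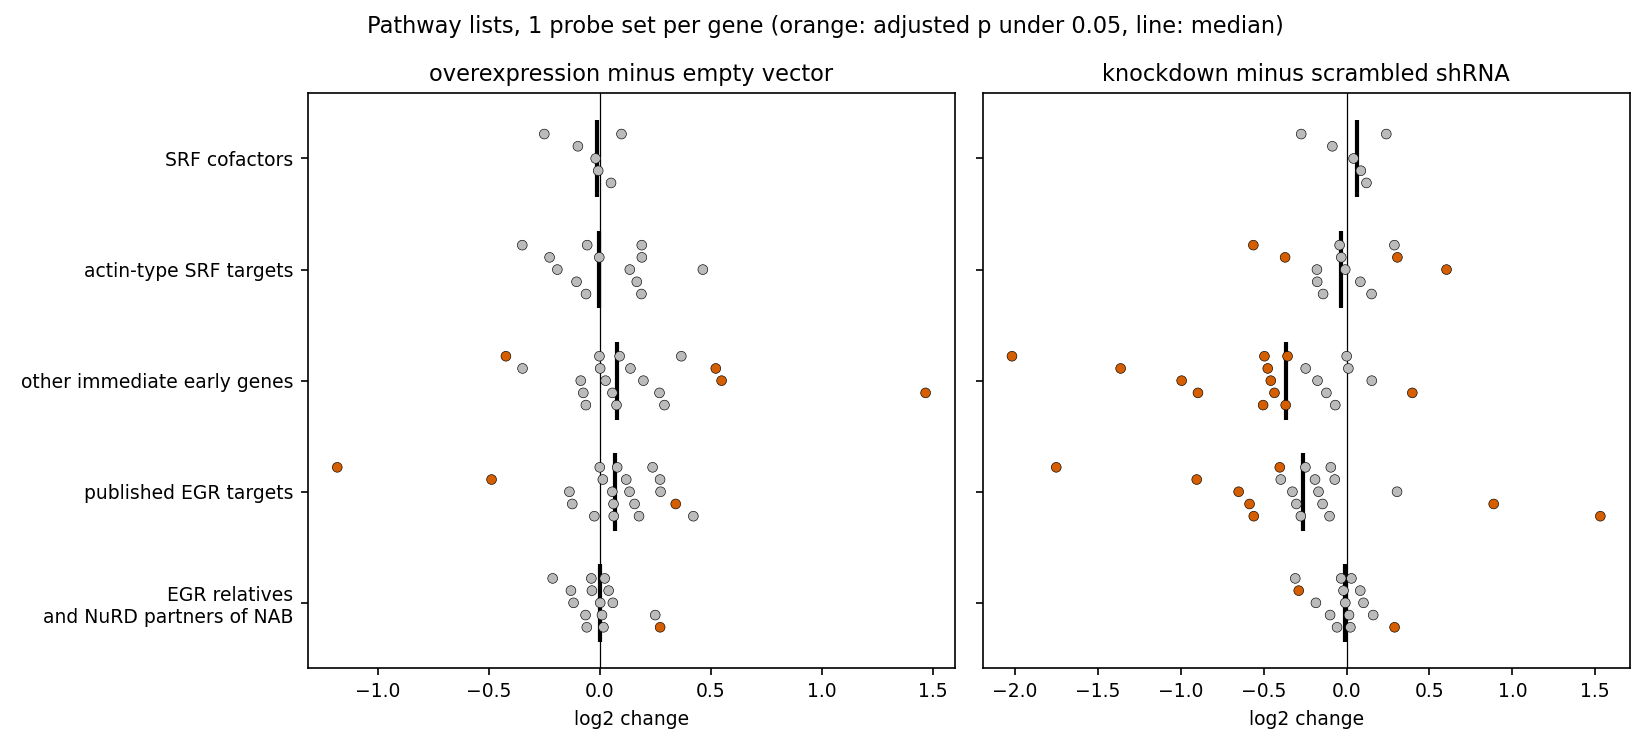
Log2 change of each measured gene in 5 lists, by its brightest probe set, with overexpression (left) and knockdown (right), each with its own horizontal scale; orange points have an adjusted p under 0.05 and the vertical bar is the list's median. The medians of other immediate early genes and published EGR targets lie at -0.37 and -0.26 with knockdown, while that of SRF cofactors lies at 0.06.

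Over the 12 arrays, the levels of EGR1 and EGR3 had a Pearson r of 0.984, EGR1 and IER2 of 0.974, and EGR1 and NAB2 of 0.971, by their brightest probe sets. After each group's mean was removed these were 0.772, 0.349 and 0.261. With the dimmer EGR1 probe set in place of the brighter they were then 0.774, 0.735 and -0.284. The correlation of EGR1 with the brighter SRF probe set was 0.381. All such values share the arrays and the 4 groups, and are descriptions.

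Among 2868 other genes that varied over the arrays, those most like EGR1 were SLC20A1, a phosphate transporter, ARHGAP25, a GTPase-activating protein, and IER3, each with an r of 0.993. NEMP1, a nuclear envelope protein, was closest to EGR3 (r = 0.994), followed by IER3 (0.988) and CD69, an activation marker of leukocytes (0.986). NEMP1 and IER3 were also the closest to IER2 (0.986 and 0.984), with SLC35G2 next at 0.98. Those closest to NAB2 were WDR48, WIPI2 and RGL2 (0.99, 0.986 and 0.981), none of which was on the other 3 lists. RGL2 averaged 8.27 on the empty vector and 8.18 on the knockdown arrays, and 9.01 on the overexpression and 9.04 on the scrambled shRNA arrays, the same high and low pairs of groups as NAB2.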

How the data were processed

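Gene expression was measured on 12 arrays, 1 per sample. The deposited values are log2 expression per probe set, as inferred from their range of 2.07 to 14.4; Expression Console from Affymetrix made them, per the submitters' processing notes (version and summarisation not given in the sources used here). Array medians of 6.64 to 6.7 show a common scale. Of 22277 probe sets, 62 controls were left out; the platform annotation paired 19064 of the rest with 1 symbol, 1043 with several and 2108 with none.

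All 22215 probe sets were fitted with limma 3.58.1 in R 4.3.3 (lmFit, 1 coefficient per group, 8 residual degrees of freedom, eBayes), with two-sided tests and Benjamini-Hochberg adjustment over all of them, in 7 comparisons. The threshold was 0.05. The fit was tested on simulated data. An exact permutation test of 3 arrays against 3 cannot give a p below 0.1. The number of arrays limits the precision.

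The members and gene lists were chosen with earlier results of these data known. The text names all member probe sets, up to 2 called genes per list each way by each gene's brightest probe set, and others as values; 1 further list is not reported here. Likeness was taken over other genes with an SD of at least 0.2 over the arrays, the 3 highest r being named. Alternatives were quantile normalization, median centring, a filter on the 40% lowest probe sets, 1 probe set or the mean per gene, other priors, weights, arrays and thresholds, a replicate block, and leaving out each array. Correlations between replicates were 0.996 to 0.998, and 0 arrays held identical values. Motifs and figures were made with Python 3.11.15 and matplotlib 3.10.9.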

Additional observations from a re-analysis of the deposited data

Results flagged for a closer look

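For 7 of the 11 probe sets the effect of overexpression differed from that of knockdown in limma's test of the difference itself. The difference, overexpression effect minus knockdown effect on the log2 scale, was 2.39 and 2.55 for the EGR1 probe sets 201694_s_at and 201693_s_at (adjusted p = 7.86e-08 and 1.99e-06). It was 3.22 for EGR3 (adjusted p = 2.11e-07) and 0.899 for IER2 (adjusted p = 1.79e-05). For NAB2 it was 1.52 at the brighter and 0.922 at the dimmer probe set (adjusted p = 1.71e-06 and 0.00254). For the brightest NAB1 probe set it was 0.52 (adjusted p = 0.00248), and 0.17 in the mean of its 3 probe sets (adjusted p = 0.394). The overexpression arrays lay above their control arrays for all 7, and the knockdown arrays lay below theirs for 6, the dimmer NAB2 probe set being the exception. These effects are each taken against a control of its own, and the controls differed from each other for the same 7 probe sets. Where a probe set was called up with overexpression and down with knockdown, the difference adds both changes and is no separate evidence.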

How the results depend on the processing

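Of 41 member changes called, 782 of their 828 values under the alternatives were also called. Of 36 not called, 17 of 701 were called and 30 changed sign. The change of NAB1 between scrambled shRNA and empty vector reversed to -0.015, and that between overexpression and scrambled shRNA to 0.16, in the mean of its 3 probe sets. Numbers of calls are given below for overexpression, knockdown (each against its control), scrambled shRNA minus empty vector, knockdown minus empty vector, overexpression minus scrambled shRNA, and overexpression minus knockdown, here called A to F, where they moved by over 1.5 times. With 1 probe set per gene, which tests fewer features, they were 3768 in C and 2154 in E, and 5 of the members in F. With the mean of probe sets per gene they were 3834 in C, 447 in D, 2063 in E and 1645 in F, and 4, 4, 3 and 4 members in B, C, E and F, with 4 for the difference between the effects. A trended robust prior gave 1211 in D, and array weights gave 1852 in A, 2340 in D and 4716 in F. Fits on the 6 arrays compared gave 597 in A, 1055 in B, 205 in D and 2037 in E. At a threshold of 0.01 the numbers were 335, 901, 3008, 96, 996 and 872 in A to F and 1683 for the difference between the effects, with 3 members in E and 5 in F. At 0.1 they were 1557 in A, 3354 in B, 1758 in D, 5268 in E and 4033 in F, with 1 member in D.

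Leaving out 1 array gave 410 to 1247 in A, 1308 to 2073 in B, 3975 to 6309 in C, 97 to 1122 in D, 1691 to 3495 in E, 1377 to 3170 in F and 2449 to 3366 for the difference between the effects. Members called were 5 to 6, 6 to 7, 6 to 8, 0 to 0, 4 to 6 and 5 to 8 in A to F. The lowest came without empty vector replicate 2 in A, C and D, knockdown replicate 1 in B, and overexpression replicate 2 in E and F.

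Same-numbered replicates did not deviate together in every pair (correlations of -0.107 to 0.379, median 0.0914). Those with different numbers had correlations of -0.363 to 0.27 (median -0.0294). These values do not settle whether the numbers pair the samples, and the main fit did not pair them. The arrays closest to their own number were 4 of 6 for empty vector and overexpression and 2 of 6 for scrambled shRNA and knockdown. With a replicate block the calls were 978 in A, 2540 in B, 6729 in C, 938 in D, 3942 in E and 3041 in F, with 6, 6, 8, 0, 7 and 8 members. The cause of these shifts was not tested. Background and detection calls were not examined, and dim probe sets are the least certain.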
